A study of Mus musculus with 5 samples.

Results

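The genes described here are Sufu and 8 genes of the ubiquitin machinery that act on GLI or MYCN proteins: Spop, Btrc, Cul1, Cul3, Itch, Numb, Fbxw7 and Huwe1. They were chosen by symbol, for their known roles in the pathway, with earlier results of these data known, and all 9 were among the 17739 genes of the deposited table. The RNA was that of tumour cells taken from the cerebella of Math1-Cre;Gli2A animals, the offspring of Math1-Cre and R26;Gli2A mice, kept on doxycycline (DOX) from embryonic day 0. Math1-Cre drives recombination in granule neuron progenitors, and the labels call GLI2 active in all 5 libraries, which carry the tumour numbers 1, 5, 8, 14 and 15. There was no library of another genotype, diet or stage, so every result below is a level, a difference between genes within a tumour, or a spread between tumours. The labels give neither the age nor the sex of the animals, nor whether the 5 numbers stand for 5 animals. The p-values therefore measure only how these samples vary, and that variation may in part be technical.

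Hedgehog signalling ends in the GLI transcription factors, and cells hold these proteins back in several ways. SUFU binds GLI proteins and keeps them out of action, while ubiquitin ligases mark them for processing or destruction by the proteasome. CUL1 and CUL3 are cullin scaffolds: CUL1 carries F-box proteins such as BTRC (beta-TrCP) and FBXW7, and CUL3 carries BTB proteins such as SPOP. ITCH, a HECT-type ligase, is brought to GLI1 by the adaptor NUMB, and FBXW7 and HUWE1, another HECT-type ligase, act on MYCN. In the cerebellum several of these proteins are known to limit the growth of granule neuron progenitors, the cells from which SHH medulloblastoma arises.

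The DNA around the start sites is shown for 4 members: Sufu, the direct GLI inhibitor, Spop, and the pair with the largest spread between tumours, Huwe1 and Numb. Each run holds 250 bases before to 50 bases after a RefSeq start site on GRCm38.p6, 5′ to 3′ on the gene's strand. Capitals mark GC boxes, the letters GGGCGG or their reverse complement CCGCCC. The windows are chr19:46396646-46396945 (plus strand) for Sufu, chr11:95413833-95414132 (plus) for Spop, chrX:151803032-151803331 (plus) for Huwe1 and chr12:83921885-83922184 (minus) for Numb, the one of its 3 windows with the most GC boxes.
Sufu: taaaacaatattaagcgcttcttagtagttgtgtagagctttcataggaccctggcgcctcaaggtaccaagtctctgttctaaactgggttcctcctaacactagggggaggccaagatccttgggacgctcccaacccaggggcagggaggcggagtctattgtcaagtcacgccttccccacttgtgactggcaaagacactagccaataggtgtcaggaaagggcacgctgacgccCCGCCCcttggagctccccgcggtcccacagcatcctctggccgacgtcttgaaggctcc
Spop: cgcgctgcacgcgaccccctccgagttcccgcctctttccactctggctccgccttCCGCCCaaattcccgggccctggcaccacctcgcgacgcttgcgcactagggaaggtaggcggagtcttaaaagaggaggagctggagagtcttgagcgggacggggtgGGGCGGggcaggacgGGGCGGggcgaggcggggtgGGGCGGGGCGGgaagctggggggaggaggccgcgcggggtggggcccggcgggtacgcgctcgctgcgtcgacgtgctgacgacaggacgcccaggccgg
Huwe1: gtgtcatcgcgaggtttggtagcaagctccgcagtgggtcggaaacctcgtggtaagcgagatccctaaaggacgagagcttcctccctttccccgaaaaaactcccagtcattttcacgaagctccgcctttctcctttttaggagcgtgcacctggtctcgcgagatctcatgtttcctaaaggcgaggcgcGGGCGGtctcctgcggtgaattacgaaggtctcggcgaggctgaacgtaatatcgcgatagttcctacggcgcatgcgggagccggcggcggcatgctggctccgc
Numb: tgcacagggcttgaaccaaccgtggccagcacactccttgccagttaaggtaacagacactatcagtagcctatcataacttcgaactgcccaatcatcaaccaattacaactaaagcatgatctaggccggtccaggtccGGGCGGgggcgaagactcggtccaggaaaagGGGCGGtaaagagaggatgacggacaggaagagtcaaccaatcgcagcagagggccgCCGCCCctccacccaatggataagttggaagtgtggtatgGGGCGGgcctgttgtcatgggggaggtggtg

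RefSeq promoter windows were found for 7 of the 9 members, 13 windows in all because Cul1, Numb and Fbxw7 have 3 each. A GC box was in 10 of the 13 windows, against 35.7% of the 32851 windows of the same length in the table. It was in at least 1 window of each of the 7 genes. A gene with 3 windows has more chances of a match, and no share per gene was taken. The printed window holds 5 GC boxes in Spop, a pair of them overlapping, 4 in Numb and 1 each in Sufu and Huwe1. CpG dinucleotides numbered 12 in the Sufu window, 37 in Spop, 31 in Huwe1, 13 in Numb and 29 in Cul3, with up to 46 in a Cul1 window and 24 in a Fbxw7 window. The other windows of Cul1, Numb and Fbxw7 held as few as 5, 3 and 1. The median over all windows was 7, and 8 of the 13 member windows lay above it, as did 48.6% of all windows. A GLI consensus, GACCACCCA or TGGGTGGTC on either strand, was in none of the 13 windows and in 0.253% of all windows. The letters CACGTG (an E-box), a palindrome that MYC proteins can bind, was in 1 member window, of Cul1, against 7.15% of all windows. These matches describe letters and not binding.

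All 9 members were expressed in every tumour. On the deposited log2 scale, read here as the regularised log of normalised read counts, their means over the 5 tumours ran from 9.46 to 13.48. A mean of 10 or more was reached by 7 of the 9, against 29.4% of all genes in the table. The median of the 9 means was 11.03, beside 8.55 over all genes and 9.40 over the 13691 genes averaging 5 or more. These values are not corrected for transcript length, and the depth of each library is unknown because the deposited values are not counts.

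**Figure D1:**
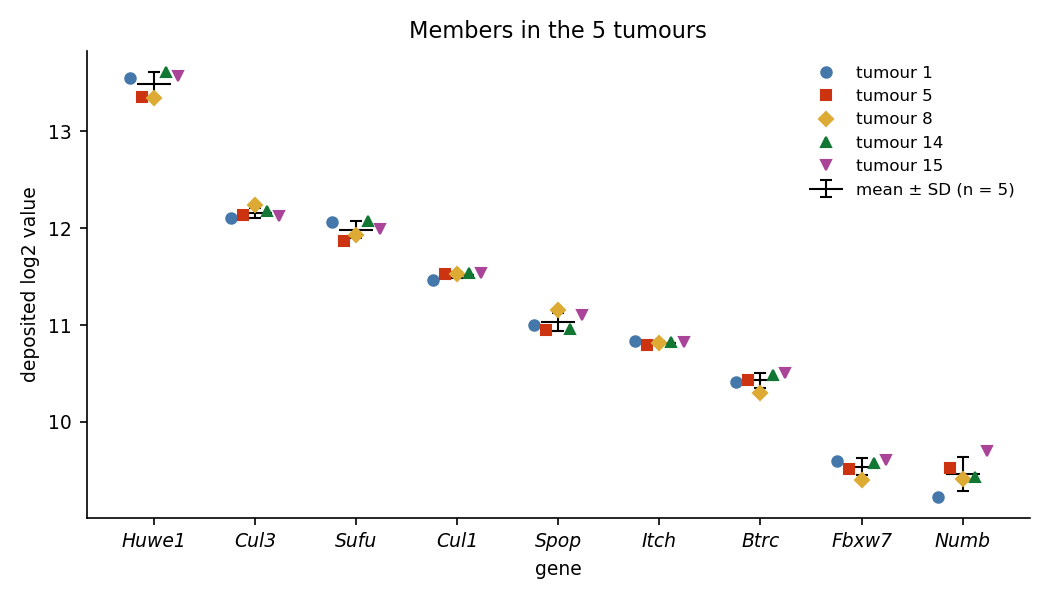
Deposited log2 values of the 9 genes (horizontal axis, ordered by mean) in each of the 5 tumours (coloured symbols), with the mean and SD over tumours in black (n = 5). The gene means span 9.46 to 13.48, whereas the range of a single gene is at most 1.39-fold.

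Sufu (ENSMUSG00000025231.17, GRCm38 chromosome 19, 46396896 to 46488804, plus strand, protein coding) encodes the direct binding partner and inhibitor of GLI proteins. Its log2 value was 12.06 in tumour 1, 11.87 in tumour 5, 11.93 in tumour 8, 12.08 in tumour 14 and 11.99 in tumour 15. The mean was 11.98 ± 0.09 (SD, n = 5). Tumours 14 and 1 were the highest and tumour 5 the lowest, and the whole range was 1.15-fold.

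Of the CUL3 branch, Cul3 itself (chromosome 1, 80264923 to 80340480, minus strand) stood at 12.10, 12.13, 12.24, 12.18 and 12.12 in tumours 1, 5, 8, 14 and 15, a mean of 12.16 ± 0.06. Spop (chromosome 11, 95414080 to 95493406, plus strand), the adaptor that presents full-length GLI2 and GLI3 to CUL3, read 10.996, 10.95, 11.15, 10.96 and 11.11 in the same order, a mean of 11.03 ± 0.09. Tumour 8 was the highest for both genes. Their lowest tumours differed, tumour 1 for Cul3 and tumour 5 for Spop.

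Of the CUL1 branch, Cul1 (chromosome 6, 47453398 to 47526139, plus strand) was nearly constant, at 11.47 in tumour 1 and 11.53, 11.53, 11.54 and 11.53 in tumours 5, 8, 14 and 15. Tumour 1 stood below the other 4, which nearly coincided. Btrc (chromosome 19, 45363734 to 45530013, plus strand), the F-box protein that recognises phosphorylated GLI proteins, read 10.42, 10.43, 10.30, 10.49 and 10.51 in that tumour order. Fbxw7 (chromosome 3, 84815268 to 84979198, plus strand), the F-box protein that recognises phosphorylated MYC proteins, read 9.59, 9.51, 9.40, 9.57 and 9.61. Both F-box genes were lowest in tumour 8 and highest in tumour 15, with ranges of 1.15-fold and 1.16-fold.

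Among the HECT ligases and their adaptor, Itch (chromosome 2, 155133509 to 155226855, plus strand) had the smallest spread of the 9, at 10.84, 10.79, 10.81, 10.82 and 10.83 in tumours 1, 5, 8, 14 and 15, a range of 1.03-fold. Numb (chromosome 12, 83794034 to 83921934, minus strand), the adaptor that brings ITCH to GLI1, had the largest, at 9.23, 9.53, 9.41, 9.43 and 9.70. Tumour 15 was its highest and tumour 1 its lowest, 1.39-fold apart. Huwe1 (chromosome X, 151800807 to 151935417, plus strand) read 13.55, 13.35, 13.34, 13.61 and 13.57. Tumours 5 and 8 lay together below the other 3, and the whole range was 1.20-fold. Huwe1 is X-linked, and Xist, the RNA of the inactive X chromosome, was at 12.89 in tumour 8 and between 7.29 and 8.10 in the other 4, tumour 5 included. Whether the number of X chromosomes bears on Huwe1 was not tested.

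To compare the genes with each other, the log2 of the exon length in kb was subtracted from each value, with all annotated exons of a gene merged (GENCODE M21). Per kb, the order of the means was Cul3 (9.87), Cul1 (9.50), Spop (9.37), Sufu (9.04), Huwe1 (8.93), Itch (7.54), Numb (7.49), Fbxw7 (6.72) and Btrc (6.35). The median of the 9 was 8.93, beside 7.17 over genes with a mean of at least 5. The order was itself taken from these values, so the tests of its neighbouring pairs are a description and no support for it. Within this order, 7 of the 8 neighbouring pairs kept the sign of their difference in 5 of 5 tumours. For each, an exact permutation test that flips the signs of the 5 tumour differences (two-sided) gave p = 0.062, the smallest it allows (adjusted 0.0714 over 8 pairs), so no such comparison could pass 0.05. The exception was Itch minus Numb, at 0.05 ± 0.18 and above 0 in 3 of 5 tumours (exact permutation p = 0.625, adjusted 0.625): with merged exons these neighbours did not differ beyond their spread.

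Merging exons stretches genes with many alternative ends. For Btrc the merged exons came to 16.9 kb and the longest annotated transcript to 4.72 kb, and for Sufu to 7.69 and 4.52 kb. With the longest transcript as the length the order became Cul3 (9.92), Cul1 (9.86), Sufu (9.81), Huwe1 (9.62), Spop (9.42), Itch (8.41), Btrc (8.19), Numb (7.63) and Fbxw7 (7.38). Spop minus Sufu then turned from 0.33 to -0.39, and Btrc ranked above Numb and Fbxw7. A split of the genes into 5 higher and 4 lower ones held under both lengths. In each of the 5 tumours the lowest of Cul3, Cul1, Spop, Sufu and Huwe1 exceeded the highest of Itch, Numb, Fbxw7 and Btrc, by 1.24 to 1.51 with merged exons and by 0.93 to 1.07 with the longest transcript. This split was noticed in the values and is a description.

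**Figure D2:**
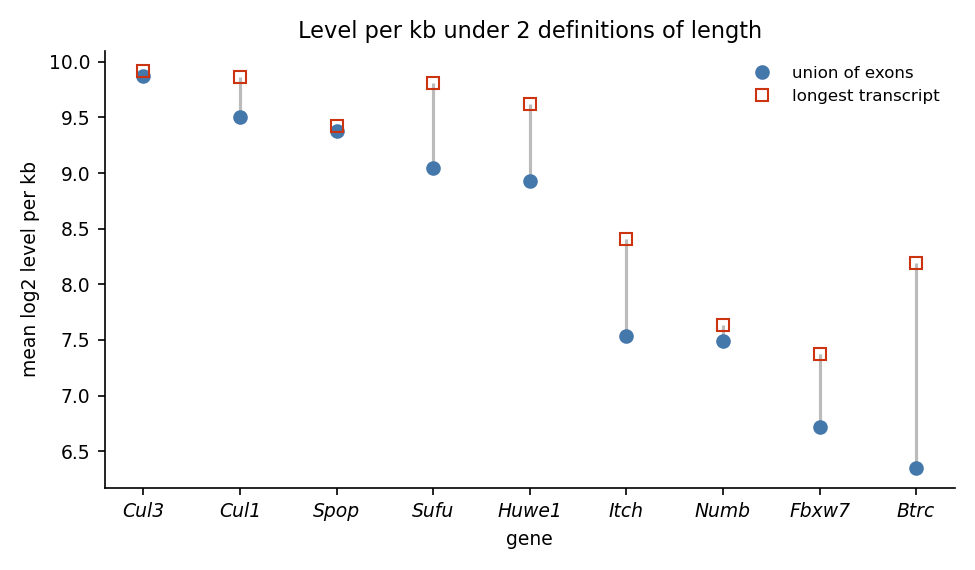
Mean log2 level per kb of each gene with the merged exons (filled circles) and with the longest annotated transcript (open squares) as its length, in the order of the former. Btrc moves the most, from 6.35 to 8.19, and the 5 genes on the left stay above the 4 on the right.

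Members were next compared with their sister genes and with the proteins they act on, as differences in log2 level per kb within each tumour. For each of the 11 pairs the sign agreed over all 5 tumours. The exact two-sided permutation p was 0.062 in every case (adjusted 0.062 over 11 pairs), the smallest possible. Levels of different genes mostly lie further apart than a gene varies between tumours (median SD 0.11 over genes averaging 5 or more). Agreement of sign was therefore likely in advance. The share of all gene pairs with such agreement was not taken, so 11 of 11 is no result about these pairs. Every difference is given first with merged exons and then with the longest transcript.

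For the CUL3 branch, Spop far exceeded its sister Spopl, which encodes a related BTB adaptor, by 4.79 ± 0.05 (4.19 with the longest transcript). Spopl had a mean log2 value of 7.95 ± 0.07. For the CUL1 branch the direction was the other way: Btrc minus its sister Fbxw11, which encodes beta-TrCP2 with the same substrate preference, was -3.13 ± 0.10 (-1.39). The size thus depended on the length used for Btrc, whereas Fbxw11 exceeded Btrc by either. Without any length correction the difference was -1.16, and Fbxw11 averaged 11.59 ± 0.03. Btrc minus Fbxw7 was -0.37 ± 0.04 with merged exons and reversed to 0.81 with the longest transcript, so these data do not order the pair. Cul1 minus Cul3 was -0.37 ± 0.05 (-0.06).

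Numb minus Numbl, its sister adaptor gene, was -1.08 ± 0.23 (-0.97), and Numbl averaged 11.69 ± 0.05 on the deposited scale. Itch minus Nedd4, another gene of the same HECT family, was -3.84 ± 0.13 (-3.97). Nedd4 was by mean the highest of all genes in the sister and adaptor list, at 14.92 in tumour 1, 14.67 in tumour 5, 14.70 in tumour 8, 14.87 in tumour 14 and 15.02 in tumour 15. For the 4 adaptor and ligase genes Btrc, Numb, Itch and Spop, the more abundant transcript of the pair was therefore the listed member only for Spop. For Itch this depends on the gene it was paired with. Per kb with merged exons, Itch (7.54) lay above Nedd4l (7.49), Wwp1 (7.36) and Wwp2 (7.27), and below Smurf1 (8.16) and Smurf2 (8.22). Those differences were not tested.

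Against the GLI genes, Sufu minus Gli1 was -0.90 ± 0.21 (-0.44), Sufu minus Gli2 was 0.43 ± 0.05 (1.15) and Sufu minus Gli3 was 5.60 ± 0.28 (6.13). The Sufu to Gli2 difference was nearly the same in every tumour, between 0.36 and 0.49. Like Sufu, Gli1 and Gli2 were both lowest in tumour 5 (11.92 and 11.27) and highest in tumour 14 (12.53 and 11.56), as were 5.54% of genes averaging 5 or more. From the other lists Cand1, Cand2, Gsk3b, Csnk1a1 and Usp47 had the same extremes. Gli3 was also highest in tumour 14 but lowest in tumour 1 (6.31). The pattern was that of Sufu and was noticed after the values were seen. The share of 5.54% therefore cannot be set against Gli1, Gli2 or the other genes that had it. Whether reads of the Gli2A allele count towards Gli2 is not given in the sources used here. For MYCN, Fbxw7 minus Mycn was -3.80 ± 0.12 (-3.45) and Huwe1 minus Mycn was -1.59 ± 0.11 (-1.21). Without a length correction the latter became 1.24, since the merged exons of Huwe1 reach 23.5 kb. Transcript ratios of this kind say nothing of protein amounts.

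**Figure D3:**
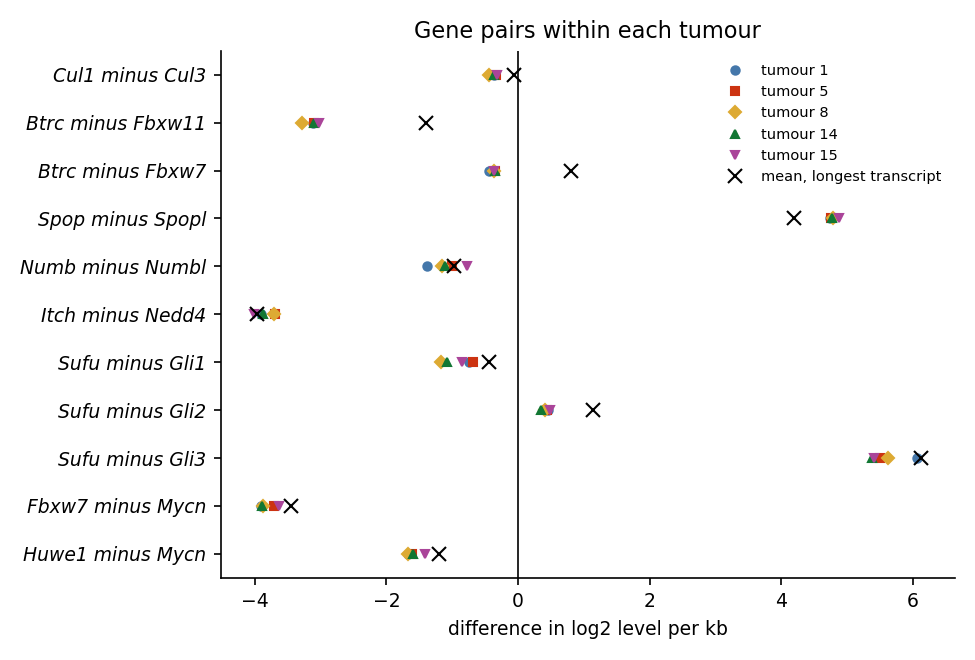
Differences in log2 level per kb between paired genes (vertical axis) in each of the 5 tumours with merged exons (coloured symbols), and the mean difference with the longest transcript as length (black crosses). Btrc minus Fbxw7 lies below 0 with merged exons (-0.37) and above 0 with the longest transcript (0.81), while the other 10 pairs stay on their side of 0.

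The members differed little between tumours. The SD over the 5 tumours ran from 0.02 for Itch to 0.17 for Numb, with a median of 0.09, against a median of 0.11 over genes with a mean of at least 5. None of the 9 had a range above 1.5-fold (0 of 9), as 14.7% of the 13691 genes did. That share was 8.89% without tumour 5. Read against such shares, 0 of 9 is not a result about the members. The SD of a gene can depend on its level, so each member was also placed among the genes whose mean lay within 0.5 of its own. The share of these genes with a smaller SD was 0.474% of 2319 for Itch, 3.82% of 1650 for Cul1 and 20.8% of 1027 for Cul3. Fbxw7 (42.9%), Btrc (45.4%), Sufu (53.4%) and Spop (56.0%) lay near the middle, and Huwe1 (71.2%) and Numb (80.2%) above it. Of the 9, 5 were below the median SD of their like-level genes and 4 above it. The median of these shares over the members was 45.4%, and 18.6% without tumour 8.

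**Figure D4:**
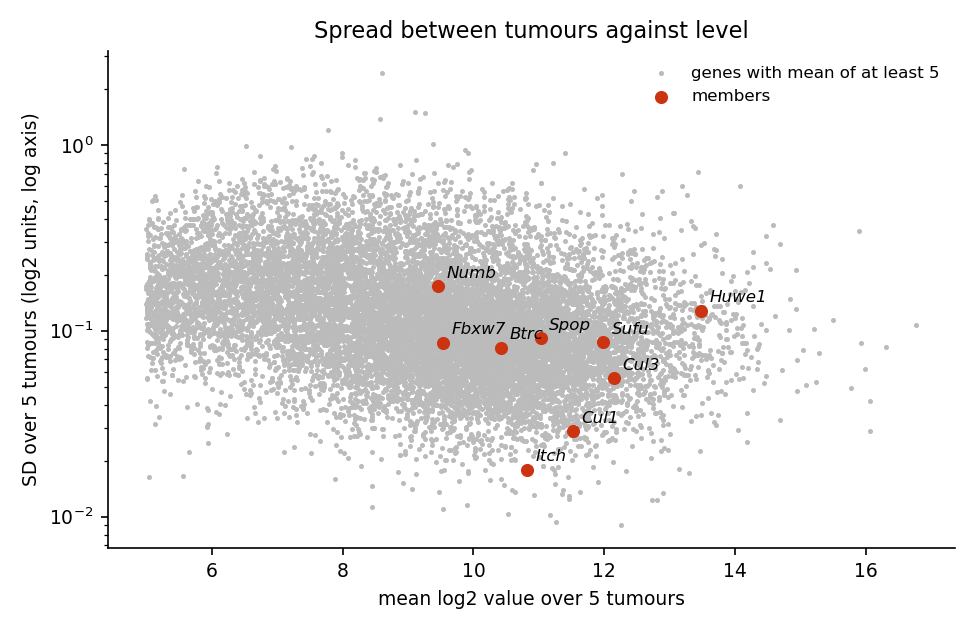
SD over the 5 tumours (vertical axis, log scale) against the mean log2 value for 13691 genes with a mean of at least 5 (grey) and the 9 members (red). Itch and Cul1 lie at the lower edge of the cloud, at SDs of 0.02 and 0.03, and Numb and Huwe1 in its upper part, at 0.17 and 0.13.

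The members did not share a single pattern over the tumours. In tumour 5, 8 of 9 members lay below the median of the other 4 tumours, against 51.9% of genes with a mean of at least 5. The exception was Numb, and the largest deviations were -0.21 for Huwe1 and -0.16 for Sufu. With each of the other tumours left out in turn the count was 6 to 8. In tumour 8, 7 of 9 lay below (49.1% of genes), led by Huwe1 (-0.22), Fbxw7 (-0.19) and Btrc (-0.16), while Cul3 (0.12) and Spop (0.17) lay above. In tumour 14, 7 of 9 lay above the others (50.2% of genes), among them Huwe1 (0.15) and Sufu (0.12). In tumour 15, 7 of 9 lay above (47.6% of genes), led by Numb (0.28) and Spop (0.13). Tumour 1 was mixed, with 5 of 9 below (48% of genes), Numb at -0.25 and Sufu at 0.10. Since each deviation is taken from the other tumours, these counts are not independent of each other. With the libraries centred on their medians, the counts became 7 in tumour 5, 6 in tumour 8, 7 in tumour 14, 5 in tumour 15 and 5 in tumour 1. They also take in deviations near 0, such as Cul1 at -0.0018 in tumour 5 and 0.0027 in tumour 15.

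Counted by extremes, tumours 1, 5 and 8 each held the lowest value of 3 members and tumours 14 and 15 of none. The corresponding shares over genes with a mean of at least 5 were 16.9%, 24.6%, 22.6%, 13% and 22.9% for tumours 1, 5, 8, 14 and 15. The highest value fell in tumour 14 for Sufu, Cul1 and Huwe1 and in tumour 15 for Btrc, Numb and Fbxw7, where 15.8% and 21.4% of genes peaked. Tumour 8 was highest for Spop and Cul3 and tumour 1 for Itch, beside 18.5% and 20.2% of genes. Tumour 5 was highest for no member (0 of 9), beside 24.1% of genes.

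**Figure D5:**
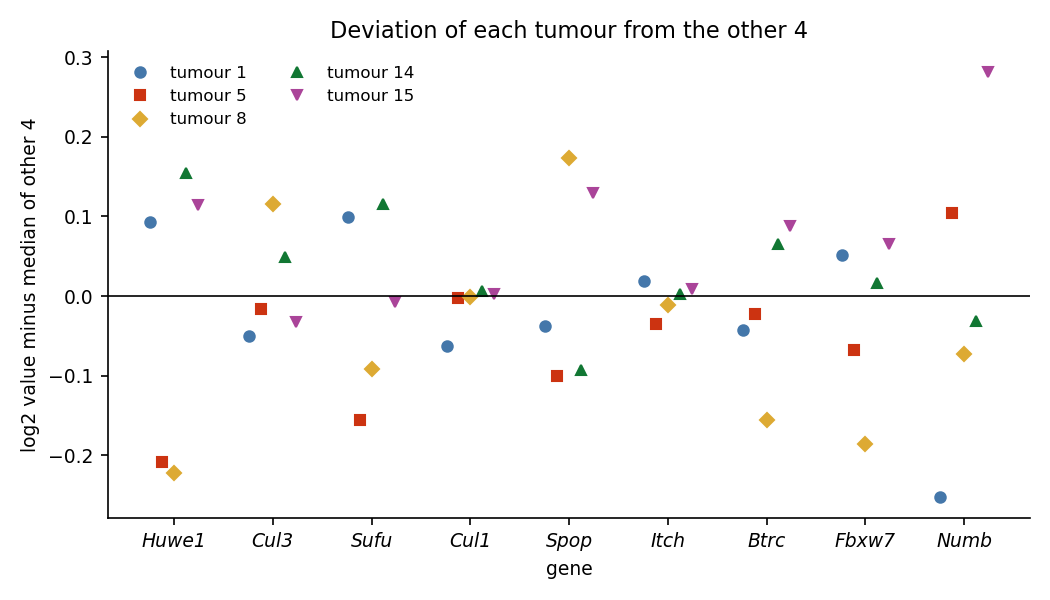
Log2 value of each gene in each tumour minus the median of the other 4 tumours (vertical axis), with genes ordered by mean level. Huwe1 is low in tumours 5 and 8 together, Spop and Cul3 are highest in tumour 8 where Btrc and Fbxw7 are lowest, and Numb ranges from -0.25 in tumour 1 to 0.28 in tumour 15.

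These libraries also held RNA of marker genes of other cells, at levels that differed between tumours. The 6 granule neuron lineage markers had a median of 13.66 to 13.79 in all 5 tumours, with Zic1 at a mean of 15.08 ± 0.05. This median is not a measure of the share of tumour cells. Of the 6 lineage markers, 2 exceeded a 1.5-fold range: Atoh1 (2.81-fold, highest in tumour 15) and Barhl1 (1.54-fold, from 12.22 in tumour 1 to 12.84 in tumour 14). Barhl1 was named after its values were seen. Oligodendrocyte markers had a median of 12.13 in tumour 5 against 10.84 to 11.65 in the others, and 6 of 6 were highest there. Choroid plexus markers (4 of 4, median 7.79 against 6.88 to 7.14), microglia and macrophage markers (5 of 6, 10.02 against 9.19 to 9.46), endothelial markers (3 of 4, 10.05 against 9.42 to 9.72) and mature granule neuron markers (3 of 4, 8.37 against 6.62 to 7.38) also peaked in tumour 5. Astrocyte markers spanned 11.95 to 12.35, pericyte and fibroblast markers 11.45 to 11.87, and dissociation stress genes 13.13 in tumour 1 to 13.95 in tumour 15. No marker had a log2 value of 0 or less in any library, but nor did any gene, the lowest value of all being 0.33. It is therefore no sign that the markers were detected. The part of these markers in the deviations of the members was not tested. In bulk RNA, fewer cells of a type and less RNA per cell cannot be told apart.

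Other genes of the same machinery are given from 5 lists. Their counts are to be read against the shares over all genes, 29.4% averaging 10 or more and, of those averaging 5 or more, 14.7% above a 1.5-fold range. A 0 among so few genes is no result about a list. Of 17 genes of the cullin core and the NEDD8 pathway, which attaches the small protein that switches cullins on, 12 had a mean of at least 10 and none a range above 1.5-fold (0 of 17). Their median SD was 0.05. Cand1, an exchange factor for cullin substrate receptors, was the highest by mean at 12.22 ± 0.07 and its relative Cand2 the lowest at 9.27 ± 0.15. Of 14 sister genes and adaptors, 10 had a mean of at least 10 and none exceeded a 1.5-fold range (0 of 14). The lowest was Kctd11, a CUL3 adaptor known to restrain hedgehog signalling, at 6.33 ± 0.14, with 6.37, 6.34, 6.14, 6.26 and 6.53 in tumours 1, 5, 8, 14 and 15.

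Of 9 kinase and kinesin genes that act on GLI proteins, 7 had a mean of at least 10. Csnk1e, a casein kinase gene, was the highest at 12.91 ± 0.05 and Kif7, the kinesin that works with SUFU at the cilium, the lowest at 7.98 ± 0.15. Stk36, the gene of the Fused kinase, was the only one of the 9 above a 1.5-fold range (1.53-fold), from 8.12 in tumour 8 to 8.74 in tumour 5, and none was above it without tumour 5 or without tumour 8. Of 7 genes of deubiquitinases and stabilisers, 6 had a mean of at least 10 and none exceeded 1.5-fold (0 of 7), with Usp7 highest at 12.53 ± 0.07 and Usp28, a deubiquitinase that opposes FBXW7, lowest at 9.79 ± 0.09.

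Of 9 genes whose proteins are targets of these ligases, 4 exceeded a 1.5-fold range, beside 14.7% of all genes with a mean of at least 5: Gli1 (1.52-fold), Gli3 (1.62-fold), Jun (1.62-fold) and Atoh1 (2.81-fold). The other 5 had smaller ranges than Numb: Myc (1.18-fold), Mycn (1.20-fold), Gli2 (1.22-fold), Ccne1 (1.29-fold) and Notch1 (1.31-fold). The median SD of the 9 substrate genes was 0.16, beside 0.09 for the 9 members, and the difference was not tested. Atoh1, the granule progenitor factor that HUWE1 acts on, read 8.00, 8.17, 8.27, 9.18 and 9.49 in tumours 1, 5, 8, 14 and 15. Tumours 14 and 15 were thus high for Atoh1 and for Huwe1, but tumour 1 was high for Huwe1 and lowest for Atoh1. Without tumour 1 the count of substrates above 1.5-fold was 2. Jun is also in the dissociation stress list, of which 5 of 5 genes were lowest in tumour 1 (Jun at 14.25). Whether the handling of the cells bears on the range of Jun was not tested.

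The genes most like a member over the tumours were sought by the root mean square difference of mean-centred log2 values over the 5 libraries, among 13690 genes. For Sufu these were Kpnb1 (0.014), Nudcd1 (0.015) and Ruvbl2 (0.016), and for Numb, Pld2 (0.013), Cpt1a (0.015) and Rapgefl1 (0.026), all in log2 units. Of the other members, the nearest to Sufu was Huwe1, at 0.057 and rank 865, and the nearest to Numb was Btrc, at 0.134 and rank 1234. The nearest of 13690 genes will nearly always lie closer than a few given ones. The ranks also depend on how much a gene varies. They are thus no sign that the members are unlike each other. With 5 libraries and so many genes, some close matches are to be had for any profile.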

How the data were processed

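Strand-specific mRNA libraries from papain-dissociated tumour cells were measured in 5 samples of 1 group, per the labels' protocols. The deposited values are on a log2 scale. The authors' transformation is taken to be DESeq2's regularised log, from the table's name and from DESeq2 among the tools in the submitters' processing notes, which also list STAR 2.4.1, featureCounts, Subread 1.4.6, mm10 and GRCm38. For annotation and strand setting, nothing is given in these sources. Of 7 columns in the table, 5 were used; the labels give no sample for the other 2. Depth is unknown, so no counting error is given.

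Means and SDs were taken over 5 libraries. Exon lengths came from GENCODE M21 (GRCm38), where 97.5% of symbols matched 1 gene. Pairs were tested by exact sign-flip permutation (32 patterns) with Benjamini-Hochberg adjustment within the families of 11 fixed and 8 neighbouring pairs. Named were all members, the genes of the pairs, Kif7, the highest and lowest gene of a list, and context genes above a 1.5-fold range. The 3 genes most like Sufu and most like the member of largest SD were also named. Some others, such as Gsk3b, Csnk1a1, Usp47 and Barhl1, were named after their values were seen. Most marker genes are given by list only. The members and lists were chosen with earlier results of these data known. Python 3.11.15, numpy 2.4.6 and pandas 2.3.3 were used.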

Additional observations from a re-analysis of the deposited data

Results flagged for a closer look

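Of 124 values and differences (all listed genes and the pairs), 7 had a single tumour set apart from the other 4 by more than 0.71 of the whole range (Dixon's criterion for 5 samples). Chance alone flags about 1 in 20 such groups. For Cul1 the ratio was 0.899, with tumour 1 at 11.47 below 11.53 to 11.54 in the others. For Btrc minus Fbxw7 it was 0.842, with tumour 1 at -0.44 against -0.36 to -0.35 per kb. For the choroid plexus gene Ttr it was 0.903, with tumour 5 at 14.71 against 13.01 to 13.17, and for Clic6, of the same list, 0.843, with tumour 5 at 8.64 against 7.93 to 8.04. The endothelial gene Cldn5 gave 0.728, with tumour 5 at 10.14 against 9.39 to 9.59. Fos, a dissociation stress gene, gave 0.789, with tumour 1 at 13.13 against 13.77 to 13.95. Ube2m, a NEDD8-conjugating enzyme gene, gave 0.736, with tumour 1 at 11.58 against 11.52 to 11.54. No explanation was tested.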

How the results depend on the processing

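Most values kept their direction. The length used for a gene mattered most. Without a length correction Btrc minus Fbxw7 was 0.89 (Fbxw7 minus Btrc -0.89), Huwe1 minus Mycn 1.24, Spop minus Sufu -0.95, Sufu minus Huwe1 -1.50 and Numb minus Fbxw7 -0.077, all reversed. With the longest transcript Btrc minus Fbxw7 was 0.81 (Fbxw7 minus Btrc -0.81) and Spop minus Sufu -0.39. These reversals follow from the lengths themselves. With each tumour left out in turn, Itch minus Numb ran from -0.014 (without tumour 1) to 0.11, and the 11 fixed pairs kept their signs. The share of all genes above a 1.5-fold range ran from 8.89% (without tumour 5) to 13.7%, the members' median share of like-level genes with a smaller SD from 18.6% (without tumour 8) to 55.4%, the kinase and kinesin genes above 1.5-fold from 0 to 1 and the substrates from 2 to 4; fewer samples narrow a range. The count of members with a mean of at least 10 was 7 without each tumour. No paired analysis was possible because there is only 1 group. Unknown depth and the shrinkage of the regularised log limit what small differences show.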
